A study of Mus musculus with 12 samples.

Results

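The genes described are 10 cytokine and chemokine genes whose products glial cells can secrete. They are the chemokine genes Ccl2, Ccl7, Cxcl1, Cxcl12 and Cx3cl1, the growth factor gene Csf1, the interleukin 1 family genes Il33 and Il18, and the interleukin 6 family genes Lif and Il6. They were chosen by gene name, and all 10 were found among the 53932 gene identifiers listed for each of 12 libraries. RNA sequencing of total RNA from cultured mouse cells gave one value per gene and library in FPKM, a fragment count scaled for the length of the transcript and the mapped total of the library. The study is titled as one on one-carbon metabolites and the identity of cells. Setting MIM-Astrocytes against Astrocytes asks how astrocytes in a metabolite medium differ from those left in serum, and the other comparisons place both beside tumour cells and stem cells.

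Each of 4 groups had 3 libraries, all of strain C57BL/6. MIM-Astrocytes were cortical astrocytes labelled E14.5 that were moved to MIM, a serum-free mixture of DMEM-F12 and Neurobasal with B27, N2, FGF2 at 20 ng/mL and up to 6 metabolites (the amino acids cysteine, glycine, methionine and threonine, the polyamine putrescine and the methyl donor S-adenosylmethionine), and were taken by day 5. The labels do not spell out MIM or give the metabolites and the day of these libraries. Glioblastoma cells were labelled cerebella at E18.5, and how that tumour culture was made is not given. NSC are neural stem cells, here from E14.5 cortex and kept as neurospheres with EGF and FGF2 at 20 ng/mL each. Astrocytes, labelled cortex at E14.5, stayed in medium with 10% serum. MIM-Astrocytes and Astrocytes thus differ in serum, FGF2 and other parts of the medium as well as in metabolites. The parts these play in any difference cannot be told apart. The protocol names GLAST-sorted postnatal cortex and differentiated neurospheres as astrocyte sources without saying which was used here. Whether libraries within a group stem from different cultures or animals is not labelled, and all p-values therefore reflect the spread among these libraries alone.

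Chemokines are small secreted proteins that bind receptors coupled to G proteins and direct the movement of leukocytes, stem cells and tumour cells. Astrocytes are known to secrete Ccl2 and Cxcl1 when exposed to inflammatory signals, and to supply microglia with Csf1, on which microglia depend for survival. Il33 and Il18 lack a classical secretion signal and act after release or cleavage, while Lif and Il6 signal through the shared receptor chain gp130, encoded by Il6st, to the transcription factor Stat3.

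Per library, 14461 to 14919 genes were at 1 FPKM or more, and the sum of all FPKM values ran between 514728 and 979106. Libraries of a group correlated at 0.968 to 0.977 across the tested genes. Because the files hold no counts, depth is unknown, and the interval deposited with each value serves as its precision. The median distance of its bounds from the value was 8.04% for Csf1 and 8.24% for Il18 but 212% for Il6, which shows how little signal lies behind the lowest genes. Gfap, the astrocyte filament gene, lay at 7.11 to 7.50 FPKM in MIM-Astrocytes, 2.95 to 3.55 in Glioblastoma, 0.851 to 1.16 in NSC and 241.1 to 273.2 in Astrocytes. Gja1, another astrocyte gene, was at 229.5 to 258.1 FPKM in MIM-Astrocytes, 0.976 to 2.19 in Glioblastoma, 98.9 to 130.6 in NSC and 228.0 to 263.9 in Astrocytes. All 10 listed astrocyte genes were at 1 FPKM or more in every MIM-Astrocytes and Astrocytes library. Their sum was 1815 to 2209 FPKM in MIM-Astrocytes, 588.4 to 614.9 in Glioblastoma, 980.1 to 1123 in NSC and 1913 to 2226 in Astrocytes. In MIM-Astrocytes against Astrocytes 4 of the 10 were called higher (Slc1a2, Slc1a3, S100b and Fgfr3), 3 lower (Gfap, Aqp4 and Sox9) and 3 not called, with a median difference in log2(FPKM + 1) of 0.11, beside 0.09 over all tested genes. Of all tested genes, 34.8% were called higher and 26.6% lower in this comparison. All 10 listed stem cell genes reached 1 FPKM in every library of MIM-Astrocytes, Glioblastoma and NSC, and 7 of them in Astrocytes. The stem cell genes summed to 4349 to 4728 FPKM in MIM-Astrocytes, 989.1 to 1127 in Glioblastoma, 2927 to 3441 in NSC and 887.3 to 1097 in Astrocytes. In MIM-Astrocytes against NSC 3 were higher (31% of all tested genes), 2 lower (Hes5 and Prom1, 24.9%) and 5 not called. Their median there was -0.02, beside 0.02 over all genes. Against Astrocytes 8 were higher (34.8%) and 2 lower (Pax6 and Prom1, 26.6%), with a median of 1.46 beside 0.09. The microglial genes Trem2 and C1qc were listed at 0 in all 12 libraries.

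Astrocytes carried the highest summed level of the 10 genes, and 1 gene made most of it. The sum per library was 38.9, 38.6 and 34.8 FPKM in MIM-Astrocytes, 46.0, 45.1 and 48.4 in Glioblastoma, 41.8, 40.2 and 35.1 in NSC, and 96.3, 99.6 and 92.3 in Astrocytes. Csf1 held 23.1% to 26.7% of it in MIM-Astrocytes, 14.9% to 16.3% in Glioblastoma, 8.48% to 9.85% in NSC and 68.8% to 72.2% in Astrocytes. Il18 was the largest contributor in MIM-Astrocytes (60.0% to 65.0%) and NSC (67.7% to 68.7%). Glioblastoma was the group in which Il33 held a large share, 26.9% to 30.3%, beside Il18 at 29.9% to 34.4%.

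**Figure D1:**
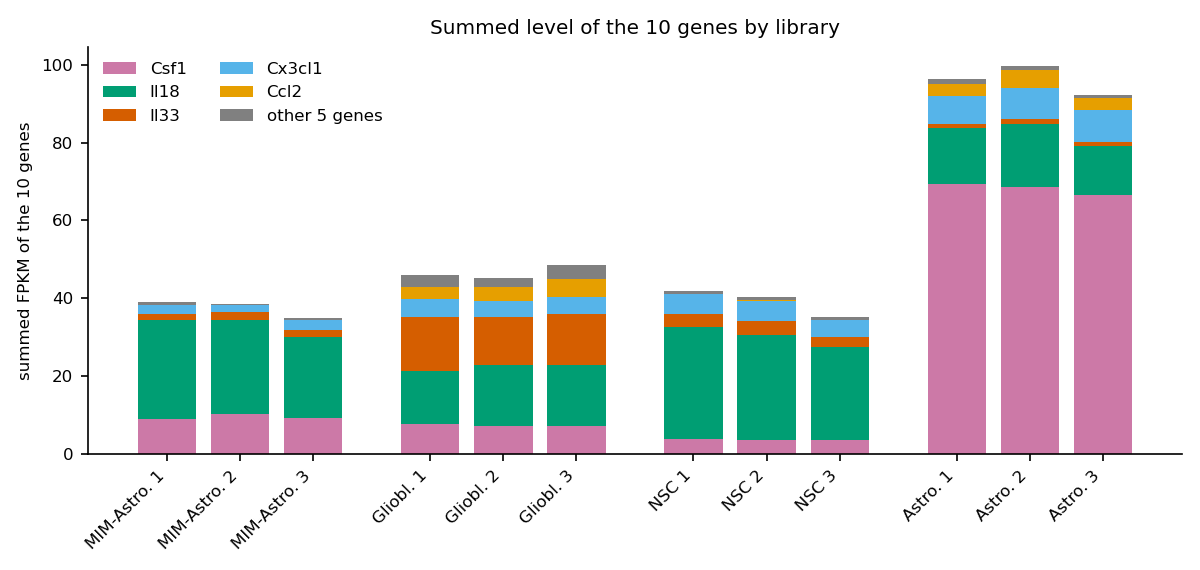
Stacked bars give the summed FPKM of the 10 genes in each of the 12 libraries, by group, with the 5 tested genes in colour and the other 5 in grey. The Astrocytes bars reach 92.3 to 99.6 FPKM and consist mostly of Csf1, and no bar of the other groups exceeds 48.4 FPKM.

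Genes were tested with limma on log2(FPKM + 1) if at least 3 libraries had 1 FPKM or more, and were called at an adjusted p below 0.05 after Benjamini-Hochberg adjustment over 16982 genes. Csf1, Il18, Il33, Cx3cl1 and Ccl2 passed this filter, and the other 5 did not. A large share of all genes was called in each comparison, so the counts for the 5 tested genes are read against that share. In MIM-Astrocytes against Astrocytes all 5 were called (61.4% of all tested genes), Il18 and Il33 higher (34.8% of all genes) and Csf1, Ccl2 and Cx3cl1 lower (26.6%), and the groups overlapped for none of the 5 (64.5% of all genes did not overlap). In MIM-Astrocytes against NSC 3 were called (55.9%), Csf1 higher (31%) and Cx3cl1 and Il33 lower (24.9%), and these 3 did not overlap (62.3%). MIM-Astrocytes against Glioblastoma had all 5 called (69.8%), Il18 and Csf1 higher (28.3%) and the other 3 lower (41.5%), none of them overlapping (74.5%). Glioblastoma against NSC had 4 called (69.9%), Ccl2, Il33 and Csf1 higher (44.8%) and Il18 lower (25.1%), and these 4 did not overlap (75%). Glioblastoma against Astrocytes had 3 called (78.3%), Il33 higher (47%) and Csf1 and Cx3cl1 lower (31.3%), and these 3 did not overlap (79.9%). NSC against Astrocytes had all 5 called (71.2%), Il33 and Il18 higher (37.7%) and Csf1, Ccl2 and Cx3cl1 lower (33.4%), none of them overlapping (73%). With 5 genes, these counts are not apart from the shares of all genes, and the content lies in the single genes below. The comparisons share groups and are not independent of one another.

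**Figure D2:**
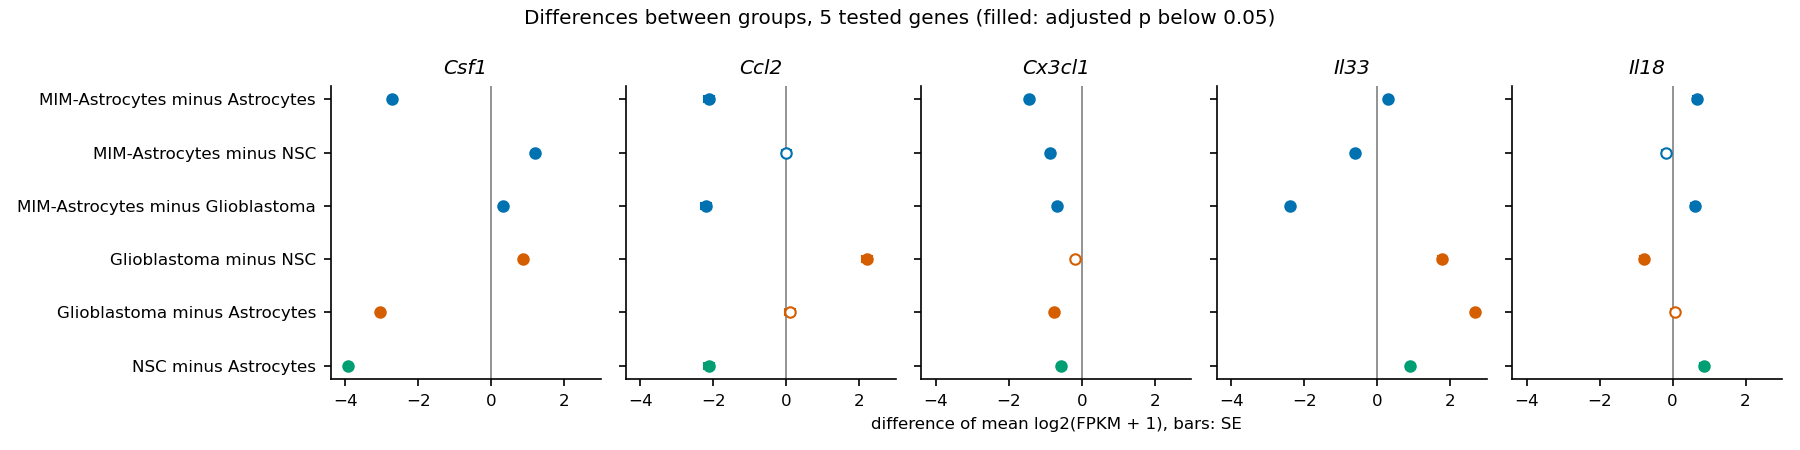
Each panel gives, for 1 of the 5 tested genes, the difference of mean log2(FPKM + 1) in the 6 comparisons, with bars for the SE (mostly inside the symbol) and filled symbols where the adjusted p was below 0.05. Csf1 lies between -2.72 and -3.93 in the 3 comparisons with Astrocytes, and Il33 between 1.78 and 2.69 where Glioblastoma is set against NSC and Astrocytes.

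For the genes with a promoter window in the RefSeq table (GRCm38.p6), the bases before the start were searched for motifs of factors known to act on cytokine genes. Windows of 250 bases were found for 8 of the 10 genes, all but Ccl2 and Ccl7, with 2 windows for Il33. The NF-kB consensus was present in the windows of 4 genes, Cxcl1, Lif, Csf1 and Il6, and in 7.3% of all 32851 windows. It was absent from those of Il33, which was highest in Glioblastoma, and of Cx3cl1, which was highest in Astrocytes. The AP-1 motif TGANTCA was in the windows of Lif and Il6 and in 6.7% of all windows. The C/EBP motif TTNNGNAA was in those of Il33 and Il6 and in 36.8% of all windows, and the STAT motif TTCNNNGAA was in none of the 8 genes and in 7.0% of all windows. Both strands were searched, and a match is a description of letters, not of binding. The 4 windows with the NF-kB consensus are printed because these genes were high in Astrocytes (Csf1) or Glioblastoma (Cxcl1, Lif) or are known targets of inflammatory signals (Il6). They read 5' to 3' on the strand of the gene up to its annotated start, with matched motifs in capitals. In Cxcl1 the capitals are 2 overlapping matches, 1 on each strand. In Lif the first capitals are the AP-1 and the next the NF-kB match, in Csf1 the NF-kB match lies on the opposite strand, and in Il6 the order is AP-1, C/EBP and NF-kB. The windows are chr5:90890995-90891240 (plus strand) for Cxcl1, chr11:4257318-4257556 (plus strand) for Lif, chr3:107760470-107760719 (minus strand) for Csf1 and chr5:30012864-30013113 (plus strand) for Il6.
Cxcl1: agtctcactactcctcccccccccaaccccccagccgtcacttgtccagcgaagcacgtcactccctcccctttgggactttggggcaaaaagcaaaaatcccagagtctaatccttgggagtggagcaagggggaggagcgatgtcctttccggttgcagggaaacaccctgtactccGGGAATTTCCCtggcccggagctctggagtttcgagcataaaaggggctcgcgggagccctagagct
Lif: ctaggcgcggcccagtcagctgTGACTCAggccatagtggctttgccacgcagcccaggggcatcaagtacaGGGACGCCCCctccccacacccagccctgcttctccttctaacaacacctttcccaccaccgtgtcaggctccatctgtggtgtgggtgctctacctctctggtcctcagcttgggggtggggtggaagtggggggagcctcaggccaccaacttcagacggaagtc
Csf1: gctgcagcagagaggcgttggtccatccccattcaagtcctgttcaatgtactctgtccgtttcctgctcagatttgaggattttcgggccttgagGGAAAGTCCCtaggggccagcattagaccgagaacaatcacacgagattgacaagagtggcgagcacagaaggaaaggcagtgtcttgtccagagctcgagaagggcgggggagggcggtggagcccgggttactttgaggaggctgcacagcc
Il6: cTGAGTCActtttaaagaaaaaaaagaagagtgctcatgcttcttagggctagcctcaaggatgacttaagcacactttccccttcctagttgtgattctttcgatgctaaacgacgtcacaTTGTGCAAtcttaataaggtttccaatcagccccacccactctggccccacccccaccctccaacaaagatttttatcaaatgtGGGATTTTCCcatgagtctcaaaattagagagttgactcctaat

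Csf1 encodes macrophage colony-stimulating factor and lies on the minus strand at chr3:107741048-107760469. It measured 8.99, 10.3 and 9.26 FPKM in MIM-Astrocytes, 7.50, 7.22 and 7.23 in Glioblastoma, 3.77, 3.41 and 3.46 in NSC, and 69.5, 68.5 and 66.5 in Astrocytes. Every Astrocytes library stood far above the other 9, no pair of groups overlapped, and the order of the means was Astrocytes, MIM-Astrocytes, Glioblastoma and NSC. The mean was 7.16-fold lower in MIM-Astrocytes than in Astrocytes, a difference of -2.72 ± 0.06 (log2(FPKM + 1), SE) with an adjusted p of 6.17e-11. In bulk RNA, fewer cells that express a gene and less RNA per cell cannot be told apart. MIM-Astrocytes stayed above NSC by 1.21 ± 0.06 (adjusted p = 6.09e-08) and above Glioblastoma by 0.34 ± 0.06 (adjusted p = 0.000291), and the difference from Glioblastoma became 0.58 when libraries were scaled to a common total. Glioblastoma lay 9.32-fold and NSC 19.2-fold below Astrocytes, and both differences were called (adjusted p = 1.11e-11 and 4.34e-12). Among tested protein-coding genes, 49.5% had a lower mean than Csf1 in MIM-Astrocytes and 93.1% in Astrocytes. Csf1r, the receptor that Csf1 shares with Il34, did not exceed 0.0641 FPKM in any library. Il34 itself was at 2.53 ± 0.356 FPKM in MIM-Astrocytes, 2.70 ± 0.377 in Glioblastoma, 2.34 ± 0.339 in NSC and 2.27 ± 0.188 in Astrocytes (SD, n = 3 each) and was called in none of the 6 comparisons.

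Ccl2, at chr11:82035571-82037453, encodes the chemokine that draws monocytes through the receptor Ccr2. It measured 0.0268, 0 and 0.0909 FPKM in MIM-Astrocytes, 3.29, 3.59 and 4.59 in Glioblastoma, 0.0281, 0.0598 and 0.0267 in NSC, and 3.20, 4.56 and 2.91 in Astrocytes. The libraries thus formed a high pair of groups, Glioblastoma and Astrocytes, which overlapped, and a low pair near 0, MIM-Astrocytes and NSC, which overlapped too and whose deposited intervals all include 0. MIM-Astrocytes lay -2.12 ± 0.13 from Astrocytes (adjusted p = 2.27e-07) and -2.21 ± 0.13 from Glioblastoma (adjusted p = 1.45e-07), and Glioblastoma 2.21 ± 0.13 above NSC (adjusted p = 1.47e-07). The size of these differences depends on the pseudocount: with 0.1 FPKM they were -4.74, -4.86 and 4.82. Glioblastoma and Astrocytes differed by 0.09 ± 0.13 (adjusted p = 0.55), and MIM-Astrocytes and NSC by 0.00 ± 0.13 (adjusted p = 0.999). The sign of the Glioblastoma to Astrocytes difference was not stable, and with a common total Glioblastoma was called lower (-0.40, adjusted p = 0.00694). Gm17268, which overlaps Ccl2 on the opposite strand, averaged 0 FPKM in every group.

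Ccl7 encodes another monocyte attractant and lies 8259 bases from Ccl2, at chr11:82045712-82047525. It was listed at 0 in all 3 MIM-Astrocytes libraries, at 0.402, 0.0698 and 0.500 FPKM in Glioblastoma, at 0, 0.0305 and 0 in NSC, and at 0.765, 0.546 and 0.576 in Astrocytes. No library reached 1 FPKM, and the same groups as for Ccl2 were high, though the interval of Glioblastoma replicate 2 includes 0. Without the filter on level, in a fit over 37662 genes, Ccl7 was lower in MIM-Astrocytes than in Astrocytes with a difference of -0.70 ± 0.11 (adjusted p = 0.000557) and than in Glioblastoma with a difference of -0.39 ± 0.11 (adjusted p = 0.0146). Unlike Ccl2, its Glioblastoma and Astrocytes values did not overlap, and Glioblastoma was lower with a difference of -0.31 ± 0.11 (adjusted p = 0.0352). The neighbours Ccl11 and Ccl8 in the same cluster were listed at 0 in all 12 libraries and Ccl12 did not exceed 0.0588 FPKM, so the signal of the cluster came from Ccl2 and Ccl7. Ccr2 did not exceed 0.00992 FPKM in any library.

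Cxcl1, at chr5:90891241-90893115, encodes a neutrophil attractant that acts on Cxcr2. It measured 0.0415, 0.0207 and 0.0185 FPKM in MIM-Astrocytes, 0.934, 1.07 and 1.63 in Glioblastoma, 0.0206, 0.0243 and 0 in NSC, and 0.0759, 0.116 and 0.161 in Astrocytes. The 3 Glioblastoma libraries stood above all others, and 2 of them reached 1 FPKM, 1 library short of the filter. In the fit without the filter, Glioblastoma exceeded NSC by 1.11 ± 0.09 (adjusted p = 6.03e-06) and Astrocytes by 0.97 ± 0.09 (adjusted p = 1.03e-05), and MIM-Astrocytes were below Glioblastoma with a difference of -1.09 ± 0.09 (adjusted p = 7.01e-06). MIM-Astrocytes and Astrocytes did not overlap, but the intervals of all 3 MIM-Astrocytes values and of 2 Astrocytes values include 0, and the difference of -0.12 ± 0.09 was not called (adjusted p = 0.389). Of the neighbours in its cluster, Pf4, a chemokine known from platelets, was at 0.680 to 1.57 FPKM in Glioblastoma, at most 0.0878 in MIM-Astrocytes and listed at 0 in NSC and Astrocytes. Cxcl2, 10756 bases away, did not exceed 0.0962 FPKM, and Cxcr2 did not exceed 0.00851.

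Cxcl12, at chr6:117168535-117181367, encodes the ligand of Cxcr4 and of the scavenger receptor Ackr3 and guides migrating progenitors. It measured 0.266, 0.233 and 0.200 FPKM in MIM-Astrocytes, 0.0815, 0.123 and 0.114 in Glioblastoma, 0.784, 0.652 and 0.725 in NSC, and 0.0596, 0.0492 and 0.0698 in Astrocytes. It was low throughout but ordered, with NSC highest, MIM-Astrocytes next, then Glioblastoma and Astrocytes, and no groups overlapped. Without the filter, MIM-Astrocytes exceeded Astrocytes by 0.22 ± 0.03 (adjusted p = 0.000414) and lay -0.48 ± 0.03 from NSC (adjusted p = 2.98e-06), while Glioblastoma and Astrocytes differed by 0.06 ± 0.03 (adjusted p = 0.144). In mean FPKM, a scale per transcript length, both receptors exceeded the ligand in each group. Cxcr4 measured 2.69, 4.28 and 3.86 FPKM in MIM-Astrocytes, 10.9, 11.0 and 11.9 in Glioblastoma, 9.03, 8.26 and 7.94 in NSC, and 23.7, 28.1 and 21.8 in Astrocytes. All MIM-Astrocytes libraries lay below all others, and the difference from Astrocytes was -2.48 ± 0.13 (adjusted p = 5.85e-08). Ackr3 averaged 5.14 ± 0.664 FPKM in MIM-Astrocytes, 0.483 ± 0.150 in Glioblastoma, 14.0 ± 1.04 in NSC and 7.18 ± 0.259 in Astrocytes (SD, n = 3 each). Ackr3 was lower in Glioblastoma than in NSC with a difference of -3.34 ± 0.10 (adjusted p = 7.41e-10), and lower in MIM-Astrocytes than in Astrocytes with a difference of -0.42 ± 0.10 (adjusted p = 0.00328; -0.72 with a common total). The call of Cxcr4 in Glioblastoma against NSC (0.39 ± 0.13, adjusted p = 0.022) was lost under each of the 3 other scalings and when Glioblastoma replicate 3, NSC replicate 2 or NSC replicate 3 was left out (adjusted p = 0.0548 to 0.301).

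Cx3cl1 encodes fractalkine, a chemokine tethered to the membrane that Adam10 and Adam17 shed and that signals to Cx3cr1 on microglia. The gene lies at chr8:94772009-94782427. It measured 2.41, 1.93 and 2.45 FPKM in MIM-Astrocytes, 4.48, 3.91 and 4.33 in Glioblastoma, 5.07, 5.27 and 4.42 in NSC, and 7.11, 7.97 and 8.36 in Astrocytes. MIM-Astrocytes were the lowest group and Astrocytes the highest, without overlap, while Glioblastoma and NSC overlapped in the middle. MIM-Astrocytes lay 3.45-fold below Astrocytes (-1.43 ± 0.09, adjusted p = 1.94e-07), and below NSC with a difference of -0.86 ± 0.09 (adjusted p = 1.71e-05) and Glioblastoma with a difference of -0.68 ± 0.09 (adjusted p = 4.89e-05). Here MIM-Astrocytes did not fall between Astrocytes and NSC, as they did for Csf1. Glioblastoma was lower than Astrocytes with a difference of -0.75 ± 0.09 (adjusted p = 1.71e-05; -1.28 with a common total). The Glioblastoma to NSC difference of -0.17 ± 0.09 was not called (adjusted p = 0.1), but was called under all 3 other scalings (-0.32 to -0.37) and without NSC replicate 3 (-0.24, adjusted p = 0.0462). The shedding enzymes were not called in MIM-Astrocytes against Astrocytes, with differences of 0.10 ± 0.05 for Adam10 and 0.11 ± 0.14 for Adam17 (adjusted p = 0.123 and 0.547). Both were higher in Glioblastoma than in NSC, by 0.50 ± 0.05 for Adam10 (adjusted p = 1e-05) and 0.74 ± 0.14 for Adam17 (adjusted p = 0.000927). Cx3cr1 did not exceed 0.0741 FPKM in any library.

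**Figure D3:**
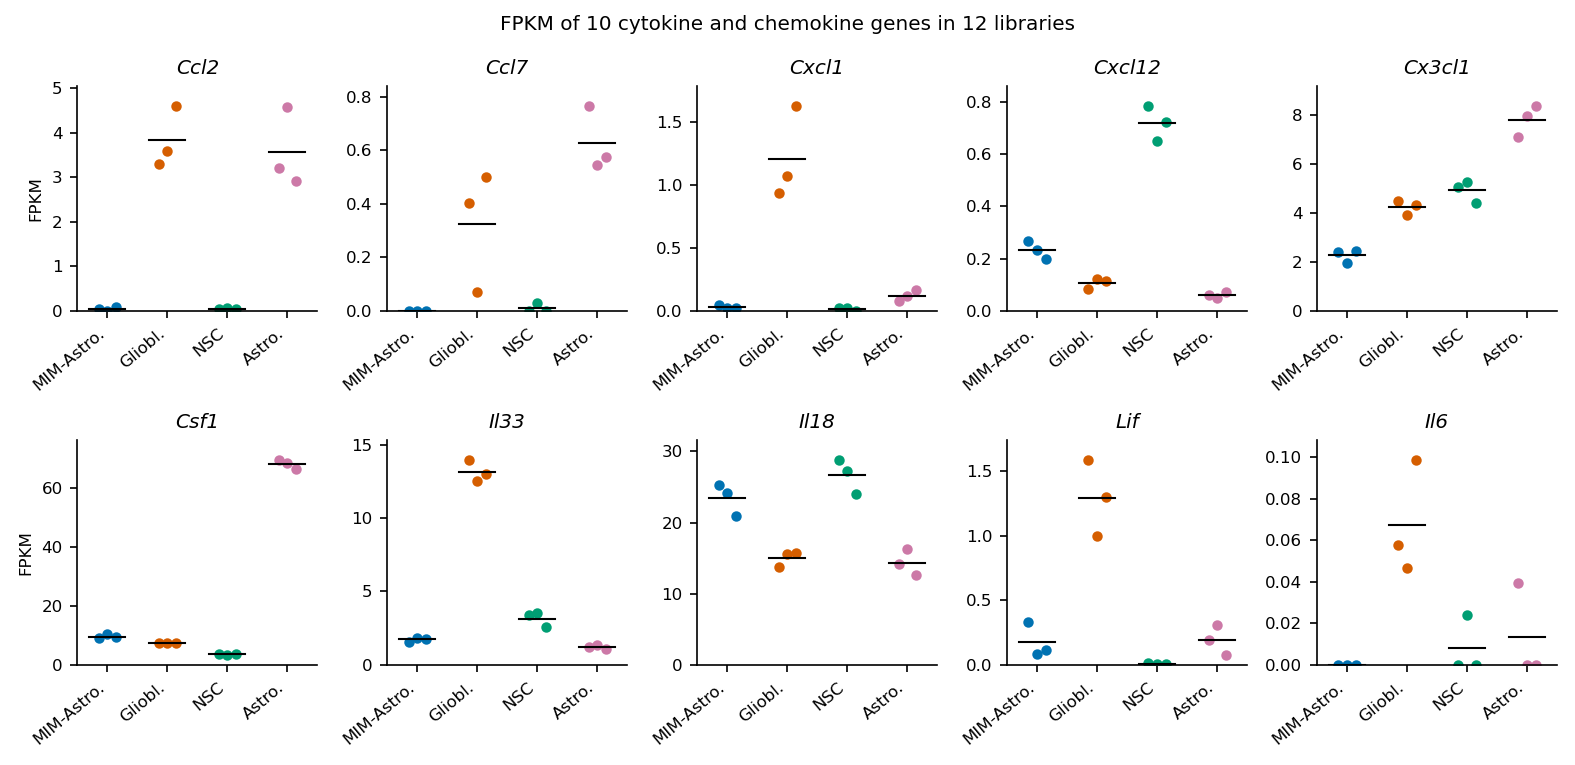
Points are the FPKM of the 10 genes in each of the 12 libraries, by group, with a line at the group mean, on a scale that differs between panels. Astrocytes stand apart for Csf1 (66.5 to 69.5 FPKM), Glioblastoma for Il33, Cxcl1 and Lif, and NSC for Cxcl12, while Ccl2 is near 0 in MIM-Astrocytes and NSC.

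Il33, at chr19:29925114-29960718, encodes a nuclear alarmin that is released from damaged cells and acts through Il1rl1 (ST2) and Il1rap. It measured 1.54, 1.85 and 1.78 FPKM in MIM-Astrocytes, 14.0, 12.5 and 13.0 in Glioblastoma, 3.41, 3.50 and 2.54 in NSC, and 1.20, 1.36 and 1.05 in Astrocytes. Glioblastoma formed the high group, with NSC second, and no groups overlapped. The Glioblastoma mean was 4.18-fold above NSC (1.78 ± 0.10, adjusted p = 7.86e-08) and 10.9-fold above Astrocytes (2.69 ± 0.10, adjusted p = 1.55e-09), and MIM-Astrocytes lay 7.64-fold below Glioblastoma (-2.38 ± 0.10, adjusted p = 8.83e-09). MIM-Astrocytes were lower than NSC with a difference of -0.60 ± 0.10 (adjusted p = 0.000442). Their excess over Astrocytes was small, at 0.31 ± 0.10 (adjusted p = 0.0195). That call was lost with a common total (0.11, adjusted p = 0.389) and without MIM-Astrocytes replicate 2 (0.27), MIM-Astrocytes replicate 3 (0.29) or Astrocytes replicate 3 (0.26). Il1rl1 did not exceed 0.0185 FPKM in any library. Il1rap, the accessory chain shared with other interleukin 1 receptors, averaged 5.07 ± 0.283 FPKM in MIM-Astrocytes, 11.8 ± 0.704 in Glioblastoma, 23.0 ± 1.46 in NSC and 6.57 ± 0.118 in Astrocytes (SD, n = 3 each).

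Il18 encodes a proinflammatory cytokine that Casp1 cleaves into its active form and that the secreted protein Il18bp neutralises. The gene lies at chr9:50554827-50581840. It measured 25.3, 24.2 and 20.9 FPKM in MIM-Astrocytes, 13.7, 15.5 and 15.7 in Glioblastoma, 28.7, 27.2 and 24.0 in NSC, and 14.2, 16.2 and 12.6 in Astrocytes. MIM-Astrocytes and NSC overlapped as a higher pair, Glioblastoma and Astrocytes overlapped as a lower pair, and no library of one pair reached the other. MIM-Astrocytes exceeded Astrocytes 1.64-fold (0.68 ± 0.11, adjusted p = 0.000281; 0.36 with a common total) and Glioblastoma 1.57-fold (0.61 ± 0.11, adjusted p = 0.000434). Glioblastoma lay below NSC with a difference of -0.79 ± 0.11 (adjusted p = 6.89e-05). MIM-Astrocytes and NSC differed with a difference of -0.18 ± 0.11, which was not called (adjusted p = 0.184) except after quantile normalization (-0.30, adjusted p = 0.0133). Glioblastoma and Astrocytes differed by 0.06 ± 0.11 (adjusted p = 0.6), and the sign turned under the 3 other scalings, 2 of which called Glioblastoma lower. Tex12 and Bco2 overlap Il18 on the opposite strand and averaged at most 0.780 FPKM in any group. Casp1 averaged 1.10 ± 0.302 FPKM in MIM-Astrocytes, 2.53 ± 0.207 in Glioblastoma, 0.186 ± 0.0127 in NSC and 1.32 ± 0.212 in Astrocytes (SD, n = 3 each), with the highest mean in Glioblastoma, a group with less Il18 RNA. Il18bp was higher in MIM-Astrocytes than in Astrocytes by 0.25 ± 0.07 (adjusted p = 0.00775) and lower in Glioblastoma than in NSC with a difference of -0.30 ± 0.07 (adjusted p = 0.00241). Il18r1 did not exceed 0.00528 FPKM and Il18rap was listed at 0 in all 12 libraries.

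Lif encodes leukemia inhibitory factor, which binds Lifr and Il6st and is known to drive astrocyte differentiation of neural progenitors. The gene lies at chr11:4257557-4272514. It measured 0.330, 0.0864 and 0.116 FPKM in MIM-Astrocytes, 1.58, 0.999 and 1.30 in Glioblastoma, 0.00955, 0.00508 and 0.00454 in NSC, and 0.192, 0.311 and 0.0720 in Astrocytes. Glioblastoma was the high group, MIM-Astrocytes and Astrocytes overlapped, and the NSC values were the lowest. The deposited intervals include 0 for all 3 NSC and all 3 Astrocytes values and for MIM-Astrocytes replicate 2, so the order of these 3 groups is not well measured. As for Cxcl1, 2 libraries reached 1 FPKM. Without the filter, Glioblastoma exceeded NSC by 1.18 ± 0.11 (adjusted p = 1.33e-05) and Astrocytes by 0.94 ± 0.11 (adjusted p = 4.6e-05), and MIM-Astrocytes lay below Glioblastoma with a difference of -0.96 ± 0.11 (adjusted p = 5.94e-05). MIM-Astrocytes against Astrocytes gave -0.02 ± 0.11 and was not called.

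Il6, at chr5:30013114-30019981, encodes interleukin 6. It was listed at 0 in all MIM-Astrocytes libraries, at 0.0575, 0.0465 and 0.0984 FPKM in Glioblastoma, at 0, 0.0240 and 0 in NSC, and at 0.0393, 0 and 0 in Astrocytes. Glioblastoma was the only group with signal in each library, and the deposited interval of each of its values includes 0. The fit without the filter called it higher in Glioblastoma than in NSC (0.08 ± 0.02, adjusted p = 0.00814) and than in Astrocytes (0.08 ± 0.02, adjusted p = 0.0111), a size that these intervals do not separate from 0. Over all 10 genes, that fit called 7 in MIM-Astrocytes against Astrocytes (34.5% of 37662 genes), 4 against NSC (29.1%) and 10 against Glioblastoma (41.1%). It called 9 in Glioblastoma against NSC (42.4%), 7 in Glioblastoma against Astrocytes (49.3%) and 7 in NSC against Astrocytes (42.7%). These shares include genes below the filter. Of the 16982 genes that passed it, 69.8% were called in MIM-Astrocytes against Glioblastoma, so the counts are not read as an excess.

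Il6st, the gp130 chain that Lif, Il6 and Cntf use, had the highest mean FPKM of the listed receptor genes in each group and, like Csf1, was highest in Astrocytes. It measured 62.2, 80.9 and 68.5 FPKM in MIM-Astrocytes, 52.8, 57.7 and 46.1 in Glioblastoma, 54.3, 45.4 and 33.7 in NSC, and 429.7, 453.3 and 411.7 in Astrocytes. The Astrocytes libraries stood far above the other 9, and the difference of MIM-Astrocytes from Astrocytes was -2.60 ± 0.16 (adjusted p = 2.25e-07). Lifr, which pairs with Il6st to bind Lif, measured 31.1, 34.3 and 34.9 FPKM in MIM-Astrocytes, 6.34, 6.21 and 7.25 in Glioblastoma, 25.5, 29.4 and 25.2 in NSC, and 21.2, 20.1 and 21.6 in Astrocytes. Its lowest group was Glioblastoma, the group with the most Lif. Lifr was higher in MIM-Astrocytes than in Astrocytes by 0.65 ± 0.08 (adjusted p = 3.89e-05; 0.32 with a common total) and lower in Glioblastoma than in NSC with a difference of -1.87 ± 0.08 (adjusted p = 9.49e-09). Il6ra, the specific Il6 receptor, did not exceed 0.718 FPKM. Of the 18 listed receptors of the 10 genes, 6 were tested. In MIM-Astrocytes against Astrocytes Lifr was called higher (34.8% of all tested genes), Cxcr4, Ackr3, Il1rap and Il6st lower (26.6%) and Ackr1 was not called. The median difference of the 6 was -0.37, beside 0.09 over all tested genes.

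**Figure D4:**
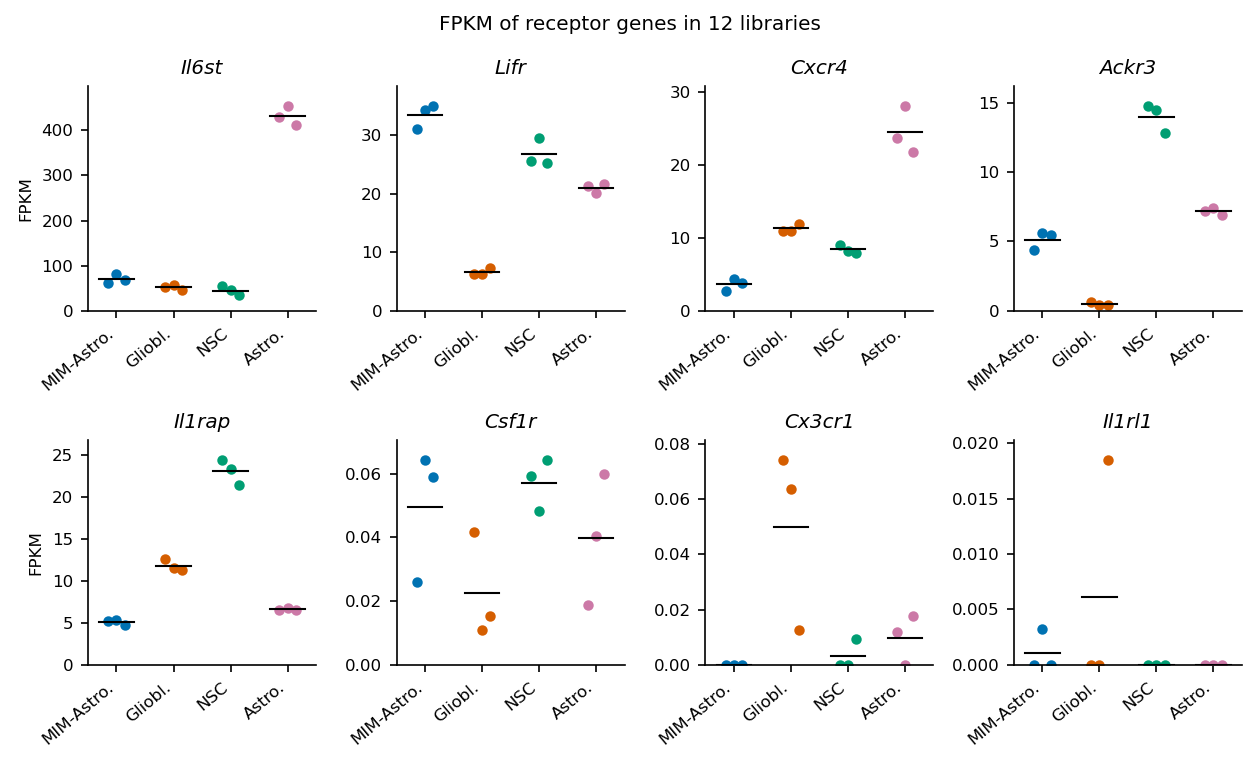
Points are the FPKM of 8 receptor genes in each of the 12 libraries, by group, with a line at the group mean, on a scale that differs between panels. Il6st and Cxcr4 are highest in Astrocytes and Lifr is lowest in Glioblastoma, while no value of Csf1r, Cx3cr1 or Il1rl1 exceeds 0.0741 FPKM.

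The listed enzymes and binding partners that process these cytokines were 15, of which 11 were tested. In MIM-Astrocytes against Astrocytes 5 were higher, 2 lower and 4 not called, beside 61.4% of all tested genes called, and their median of 0.14 was near the 0.09 over all genes. The heparan sulfate proteoglycans that bind chemokines at the cell surface went in different directions: Sdc1 was higher in MIM-Astrocytes by 0.78 ± 0.07 (adjusted p = 3.61e-06) and Sdc4 lower with a difference of -1.18 ± 0.08 (adjusted p = 6.11e-07). Sdc4 averaged 97.1 ± 4.03 FPKM in MIM-Astrocytes, 3.79 ± 0.363 in Glioblastoma, 21.7 ± 1.29 in NSC and 222.2 ± 22.1 in Astrocytes (SD, n = 3 each). Glioblastoma against NSC had 8 of the 11 higher (44.8% of all tested genes) and 3 lower (25.1%), with a median of 0.72 beside 0.19 over all genes. Among those higher was Mmp2, a protease that cleaves Cxcl12 and Ccl7, at 6.90 ± 0.405 FPKM in Glioblastoma and 0.627 ± 0.246 in NSC. Mmp2 and Casp4, also among those higher, reached 1 FPKM only in Glioblastoma and passed the filter only through that group.

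Of 69 other cytokine and chemokine ligand genes, 19 were tested. In MIM-Astrocytes against Astrocytes 6 were higher (34.8% of all tested genes), 10 lower (26.6%) and 3 not called, with a median of -0.37 beside 0.09 over all genes. Il15 and Clcf1, among those lower, passed the filter only through Astrocytes. Cntf, a glial cytokine that signals through Il6st and Lifr, measured 3.99, 4.44 and 3.94 FPKM in MIM-Astrocytes, 1.36, 1.75 and 1.61 in Glioblastoma, 2.09, 1.97 and 1.62 in NSC, and 131.6, 149.4 and 114.9 in Astrocytes. Like Csf1 it set Astrocytes apart, and MIM-Astrocytes were lower with a difference of -4.69 ± 0.10 (adjusted p = 9.97e-11). Tgfb3, a transforming growth factor, was lower in MIM-Astrocytes with a difference of -3.55 ± 0.08 (adjusted p = 9.09e-11). The T cell attractant Cxcl10 averaged 0.0882 ± 0.0360 FPKM in MIM-Astrocytes, 2.71 ± 0.280 in Glioblastoma, 0.0122 ± 0.0211 in NSC and 4.44 ± 0.364 in Astrocytes, the same high and low groups as Ccl2. Kitl, the ligand of the receptor Kit, went the other way, with 49.3 ± 1.41 FPKM in MIM-Astrocytes, 7.29 ± 0.626 in Glioblastoma, 29.8 ± 3.92 in NSC and 3.81 ± 0.263 in Astrocytes (SD, n = 3 each). Its difference between MIM-Astrocytes and Astrocytes was 3.39 ± 0.09 (adjusted p = 4.33e-10). Tnf and Il1b, inducers of many of these genes, did not exceed 0.0166 and 0.0996 FPKM in any library.

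Of 38 listed NF-kB, C/EBP and STAT3 pathway genes, 32 were tested, and in MIM-Astrocytes against Astrocytes 4 were higher, 20 lower and 8 not called (median -0.34, beside 0.09 over all genes). Of all tested genes, 34.8% were higher and 26.6% lower in that comparison. Il1r1, the interleukin 1 receptor, averaged 0.273 ± 0.00584 FPKM in MIM-Astrocytes and 4.58 ± 0.0828 in Astrocytes, and Cebpd, a transcription factor of inflammatory genes, 1.60 ± 0.170 FPKM in MIM-Astrocytes and 10.4 ± 1.05 in Astrocytes (SD, n = 3 each). Both were lower with a difference of -2.13 ± 0.08 (adjusted p = 3.81e-09 and 5.31e-09), and with a pseudocount of 0.1 FPKM the difference of Il1r1 was -3.65. Il1r1 reached 1 FPKM only in Astrocytes, so it passed the filter only through the group where it was high. Nfkb1 was lower with a difference of -0.73 ± 0.05 (adjusted p = 4.4e-07) and Stat3 with a difference of -1.05 ± 0.06 (adjusted p = 5.78e-08). In Glioblastoma against NSC 23 of the 32 were higher, 3 lower and 6 not called (median 0.66, beside 0.19 over all genes), with Stat3 at 112.8 ± 4.24 FPKM in Glioblastoma and 48.9 ± 0.475 in NSC. Over all tested genes 44.8% were higher and 25.1% lower in that comparison. Bcl3, Cebpb and Tlr4 were among the 23 and would not have passed the filter without Glioblastoma. Outside that group Bcl3 did not reach 1 FPKM. Cebpb did so only in Astrocytes replicate 1 (1.35 FPKM) and Tlr4 only in Astrocytes replicate 2 (1.15 FPKM). Socs3, a feedback inhibitor that Lif and Il6 induce through Stat3, was chosen after its values were seen. It measured 1.69, 2.58 and 1.56 FPKM in MIM-Astrocytes, 17.8, 19.2 and 20.5 in Glioblastoma, 2.24, 2.40 and 1.28 in NSC, and 10.5, 9.01 and 9.91 in Astrocytes. Glioblastoma and Astrocytes were high and MIM-Astrocytes and NSC low, as for Ccl2, with -1.89 ± 0.16 in MIM-Astrocytes against Astrocytes (adjusted p = 3.08e-06) and 2.78 ± 0.16 in Glioblastoma against NSC (adjusted p = 1.27e-07).

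**Figure D5:**
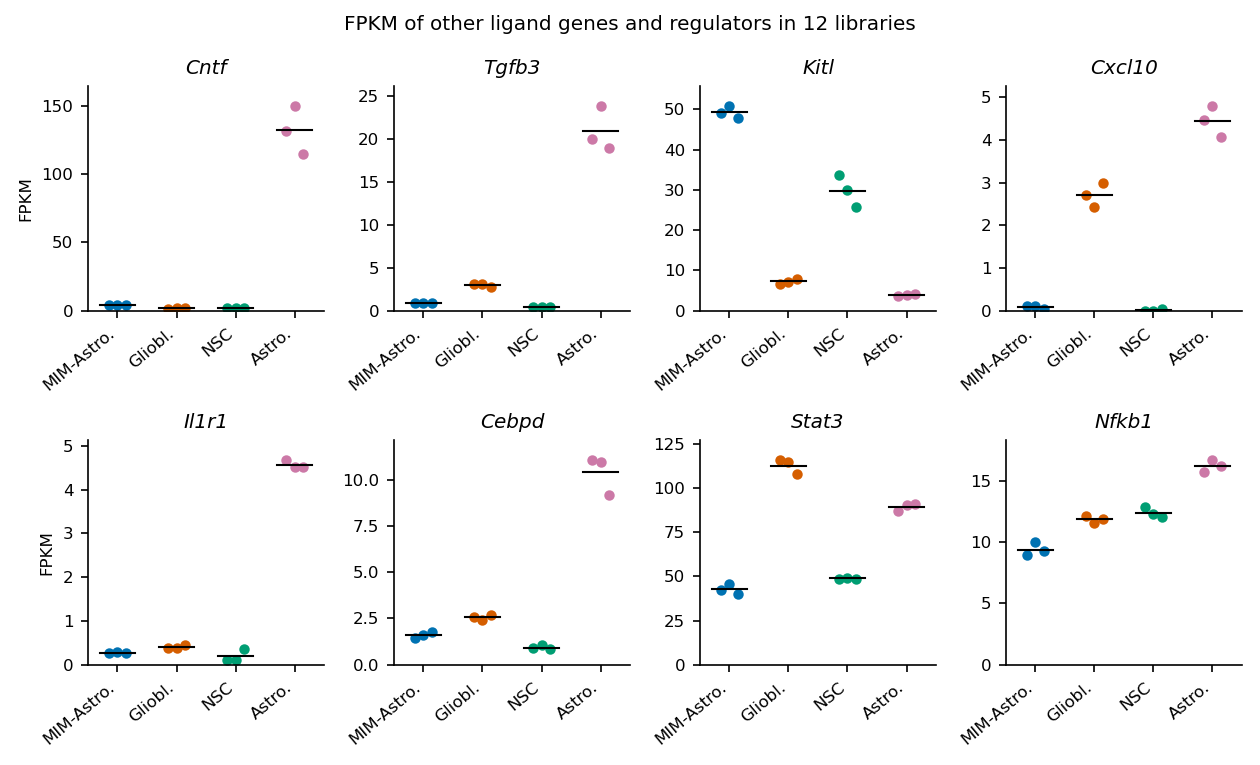
Points are the FPKM of 4 other ligand genes and 4 pathway genes in each of the 12 libraries, by group, with a line at the group mean, on a scale that differs between panels. Cntf, Tgfb3, Il1r1 and Cebpd are highest in Astrocytes, Kitl is highest in MIM-Astrocytes and Stat3 is highest in Glioblastoma.

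For the 3 tested genes with the widest range of group means, the genes with the most similar levels were sought among 9770 named protein-coding genes, by the root mean square difference of centred log2(FPKM + 1) values over the 12 libraries. For Csf1 these were Itga3, an integrin subunit (0.17), Mgat5, a glycosyltransferase (0.19), and Tgm2, a transglutaminase (0.20). For Il33 they were Myc, a growth-promoting transcription factor (0.13), St8sia1, a ganglioside synthase (0.15), and Jade1 (0.16). For Ccl2 they were Sbno2 (0.16), Emb (0.18) and Atf3, a stress-induced transcription factor (0.20). Myc averaged 4.09 ± 0.305 FPKM in MIM-Astrocytes, 23.3 ± 1.43 in Glioblastoma, 7.13 ± 1.04 in NSC and 3.45 ± 0.0328 in Astrocytes (SD, n = 3 each). Atf3 averaged 0.421 ± 0.136 FPKM in MIM-Astrocytes, 5.18 ± 0.194 in Glioblastoma, 0.139 ± 0.0496 in NSC and 5.10 ± 0.550 in Astrocytes.

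Markers of other cell types were measured beside these genes. The 18 microglia and macrophage genes summed to 24.4 to 25.9 FPKM in MIM-Astrocytes, 24.2 to 27.6 in Glioblastoma, 28.0 to 30.8 in NSC and 22.9 to 27.5 in Astrocytes. Of these, 2 passed the filter and were tested, and Tyrobp, C1qa and Ctss did not exceed 0.0440 FPKM. The 12 endothelial and mural genes summed to at most 2.89 FPKM in any library, with Cdh5 at 0 in all of them. Kdr, the only gene of this list that was tested, passed the filter only through Astrocytes, at 1.78, 1.86 and 1.64 FPKM. It was called lower in MIM-Astrocytes (-1.22), Glioblastoma (-1.19) and NSC (-1.32) than in Astrocytes. Esam measured 0.869, 1.15 and 0.995 FPKM in Glioblastoma. The 12 meningeal fibroblast genes summed to 21.1 to 23.9 FPKM in MIM-Astrocytes, 1.28 to 1.73 in Glioblastoma, 2.32 to 2.92 in NSC and 281.5 to 330.1 in Astrocytes. In Astrocytes that sum was mostly Ogn (150.5 to 182.1 FPKM), Islr and Fmod, while Lum was listed at 0 and Dcn did not exceed 0.0980 FPKM. The 5 tested genes of the list were Col1a1, Ogn, Islr, Fmod and Foxc1. All 5 were called lower than in Astrocytes in MIM-Astrocytes (26.6% of all genes), Glioblastoma (31.3%) and NSC (33.4%). Of the 12 listed, 5 reached 1 FPKM in every Astrocytes library, 3 in every MIM-Astrocytes library and 0 in every Glioblastoma or NSC library. Calls of genes that passed the filter through Astrocytes are not independent of it. The 10 neuron genes summed to 173.8 to 196.9 FPKM in MIM-Astrocytes, 211.7 to 226.4 in Glioblastoma, 295.0 to 327.2 in NSC and 113.7 to 119.3 in Astrocytes. Of the 6 tested, 1 was higher (34.8% of all genes), 2 lower (26.6%) and 3 not called in MIM-Astrocytes against Astrocytes. In MIM-Astrocytes against NSC none was higher (31%), 5 lower (24.9%) and 1 not called. The 10 oligodendrocyte lineage genes summed to 26.3 to 26.6 FPKM in MIM-Astrocytes, 35.2 to 39.1 in Glioblastoma, 78.7 to 85.7 in NSC and 32.1 to 38.3 in Astrocytes. Of the 7 tested, 4 were higher (34.8% of all genes), 1 lower (26.6%) and 2 not called in MIM-Astrocytes against Astrocytes, and all 7 were lower in MIM-Astrocytes than in NSC (24.9%). The neuron and oligodendrocyte lists were thus highest in NSC, as Cxcl12 was, and their part in that result was not tested. The meningeal list was highest where Csf1, Cx3cl1, Il6st and Cntf were highest, and its part in those results was not tested.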

How the data were processed

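RNA of 12 libraries in 4 groups of 3 was analysed from 1 deposited table per library. Per the file headers and the submitters' processing notes, the authors computed the FPKM values with Cufflinks (version not given) on GRCm38, each with interval bounds and a status flag. The aligner and the strandedness are not given in the sources used here, so overlapping genes on opposite strands were not separated. FPKM depends on all other RNAs of a library, which is why other scalings were tried. Of the identifiers, 99.9% were in GENCODE M21, and 45 that stood on more than 1 line were summed.

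Genes at 1 FPKM or more in at least 3 libraries with status OK in all 12 were tested (16982 genes, 12520 of them protein coding). A low gene could pass only through the groups where it was high, as Ccl2 did through Glioblastoma and Astrocytes. Calls of such genes against those groups are not independent of the filter. Values were taken as log2(FPKM + 1), which understates differences of low genes, and all 12 libraries entered 1 limma model (limma 3.58.1, R 4.3.3) of group means, with 8 residual degrees of freedom and a mean-dependent variance prior. Tests were two-sided, adjusted by Benjamini and Hochberg over all tested genes within each of 6 comparisons, and called below 0.05. The fit was tested on simulated data. Also tried were pseudocounts of 0.1 and 0.5, testing without a level filter or above a mean of 5 FPKM, median-of-ratios, common-total and quantile scaling, a constant variance prior, a replicate block, only the 6 libraries compared, and leaving out each replicate.

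All 10 genes are given in every library. From each other list the text names the 4 tested genes with the smallest p in MIM-Astrocytes against Astrocytes and receptors of the 10 genes. Cell type lists are given as sums, and mostly as counts, with few genes named. A few of the genes this rule selects are not reported here. Ackr3, Il34, Il18bp, Casp1, Adam10, Adam17, Mmp2, Il1b, Tnf, Pf4 and Socs3 were named beside the rule. The genes and lists were chosen with earlier results of these data known. Python 3.11.15 with pandas 2.3.3, NumPy 2.4.6 and, for figures, matplotlib 3.10.9 was used.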

Additional observations from a re-analysis of the deposited data

How the results depend on the processing

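Of 642 values of the 5 tested genes under up to 22 alternatives, 617 kept their direction and their side of the threshold. With the sign unchanged, 4 lost a call and 5 gained one, and 16 changed sign. Csf1 was called in the same direction in all 6 comparisons under each alternative. The sign changes were those of differences near 0 as deposited, though under some scalings Ccl2 and Il18 were then called lower in Glioblastoma than in Astrocytes. Ccl2 in MIM-Astrocytes against NSC turned to -0.0332 and -0.0002 with pseudocounts of 0.1 and 0.5, -0.0007 with median-of-ratios and -0.0123 with quantile scaling, and ranged from -0.0348 to 0.0279 without single replicates. Ccl2 in Glioblastoma against Astrocytes turned to -0.15, -0.40 and -0.050 under median-of-ratios, common-total and quantile scaling, and leaving out single replicates gave -0.021 (Glioblastoma replicate 3) to 0.24, with a negative value also without Astrocytes replicate 3. For Il18 the same scalings gave -0.22 (adjusted p = 0.0455), -0.52 (adjusted p = 0.00177) and -0.20 (adjusted p = 0.0568), and leaving out single replicates gave -0.020 (Astrocytes replicate 3) to 0.15. Il6st in Glioblastoma against NSC turned to -0.10 after quantile scaling, and was called higher without NSC replicate 1 (0.40, adjusted p = 0.0407). Between these groups Nfkb1 was called lower in Glioblastoma under the 3 scalings, and Il1r1 lost its call under 2 of them. A common total moved the median difference of all genes to -0.17 in MIM-Astrocytes, -0.26 in Glioblastoma and -0.24 in NSC, each against Astrocytes, beside 0.09, 0.23 and 0.07 as deposited. The share of calls that were higher then became 32.1%, 36.9% and 32.5%, beside 56.7%, 60.1% and 53.0%. The FPKM sums were 665449 to 795257 in MIM-Astrocytes, 812104 to 979106 in Glioblastoma, 734241 to 812381 in NSC and 514728 to 623809 in Astrocytes. Astrocytes had the lowest sums, so scaling to a common total raises them against the other groups. Why the sums differ was not tested.

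With a mean of at least 5 FPKM only 10289 genes were tested, and the genes called were 6807 (66.2%) in MIM-Astrocytes against Astrocytes, 7665 (74.5%) against Glioblastoma, 7681 (74.7%) in Glioblastoma against NSC, 8446 (82.1%) in Glioblastoma against Astrocytes and 7745 (75.3%) in NSC against Astrocytes. Of the 10 genes only Il18 and Csf1 were then tested, and 2, 2, 2, 1 and 2 were called in these comparisons, and 1 in MIM-Astrocytes against NSC (62.4% of genes). With no filter all 10 were tested. Called were then 10 in MIM-Astrocytes against Glioblastoma (41.1% of 37662 genes), 9 in Glioblastoma against NSC (42.4%) and 7 in Glioblastoma against Astrocytes (49.3%). A common total gave 5 of 5 tested in Glioblastoma against Astrocytes (74.6% of genes). Leaving out single replicates gave 4 to 5 of the 10 genes in MIM-Astrocytes against Astrocytes and in Glioblastoma against NSC, and left the number as it was in the other 4 comparisons. Library numbers did not pair the samples: the correlation of deviations from the group mean was -0.058 to 0.097 for equal numbers and -0.121 to 0.074 for unequal ones. A fit with the replicate block called 10454 genes in MIM-Astrocytes against Astrocytes, beside 10423 without it, and changed no call of the genes named. Depth is unknown, and the deposited intervals were widest for Ccl7, Cxcl1, Lif and Il6, with medians of 52.1%, 109%, 109% and 212% of the values above 0.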
